A study of Mus musculus with 12 samples.

Results

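The 32 genes described here are the sensors, effectors and target genes of the unfolded protein response of the endoplasmic reticulum (ER) and of the integrated stress response. They were taken by symbol from a list written with earlier results of these data known, and the rule itself uses no measured value. They fall into 4 roles: 4 sensors and transducers, 8 genes of the ATF4 arm, 14 chaperones and folding enzymes, and 6 genes of ER-associated degradation (ERAD). All 32 are among the 56748 genes of the count table, and all 32 are among the 14003 genes with enough counts to be tested. A further row that also carries the symbol Ddit3 had 0 counts in all 12 libraries and was set aside. Poly(A) RNA of whole liver from 16-week-old mice, co-housed and fed normal chow, was sequenced in 4 groups of 3 biological replicates. The groups were male and female 129/Sv-Cyp2e1tm1Gonz/J mice (KO), which carry a targeted allele of the ethanol- and drug-oxidising cytochrome P450 Cyp2e1, and male and female 129S1/SvImJ mice (WT). KO and WT are different lines, so each KO comparison is also a comparison of lines, and the labels name no treatment other than the shared chow and housing.

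The unfolded protein response is set off when client proteins misfold in the ER, which is extensive in hepatocytes because they secrete most plasma proteins. ATF6, IRE1 (gene Ern1) and PERK (gene Eif2ak3) sense the load in the ER membrane. ATF6 and the transcription factor XBP1, whose mRNA IRE1 splices, raise ER chaperones and ERAD genes, while PERK phosphorylates eIF2, which slows translation but favours that of ATF4. ATF4 in turn raises amino acid synthesis genes such as Asns, the transcription factor CHOP (gene Ddit3) and feedback genes such as Trib3 and Ppp1r15a, and other eIF2 kinases can reach ATF4 without ER stress.

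Total counts per library ran from 15167730 to 25082532, and levels are given as CPM, the counts scaled to a common library size with TMM factors. Each log2 fold change stands ± its standard error, derived from the F statistic of edgeR's quasi-likelihood test, and a gene was called at a Benjamini-Hochberg adjusted p under 0.05 over the 14003 genes. Cyp2e1 itself averaged 370 ± 45.6 CPM in KO males against 10851 ± 568 in WT males, and 277 ± 46.2 in KO females against 6546 ± 464 in WT females (SD, n = 3 each), as the labels say. All 9 hepatocyte markers that the table holds were counted in every library. In each library the level of genes also moved with gene length, and this length slope, in log2 CPM per doubling of length, is given because it separated the female groups. It was 0.084, 0.29 and 0.19 in KO females against -0.14, -0.23 and -0.20 in WT females, and 0.084, -0.17 and 0.17 in KO males against -0.030, 0.11 and -0.16 in WT males. Female KO and WT libraries were thus apart in this slope, and male KO and WT libraries were mixed. In bulk tissue, fewer cells of a type and less RNA per cell cannot be told apart.

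Many of these genes carry short elements just before their start that the unfolded protein response factors are known to bind. The RefSeq promoter table (build GRCm38.p6, 250 bases before to 50 after the start) held 29 windows for 28 of the 32 members, with Atf6, Derl1, Hyou1 and Manf not in it. Both strands were searched for 4 motifs. The ER stress element (ERSE), the textbook site of ATF6 and XBP1 with NF-Y, was taken as CCAAT and CCACG with 9 bases between. ERSE-II was taken as ATTGG and CCACG with 1 base between, the UPR element as TGACGTGG, and the C/EBP-ATF response element (CARE), the textbook site of ATF4, as TGATGNAAN. An ERSE stood in 8 of 29 member windows (27.6%), against 0.119% of all 32851 windows in the table. ERSE-II was found in 1 member window (3.45%, Herpud1, against 0.0365% of all), the UPR element in 0 (against 0.676% of all), and CARE in 5 (17.2%, against 3.95% of all). No sites of different motifs overlapped, a match is only a match of letters, and a window without one says only that these letters are not in it. The 9 ERSE sites are shown because 7 of the 8 genes that carry one are chaperones or folding enzymes and the remaining one is Syvn1. Capitals mark CCAAT and CCACG, each site is read 5′ to 3′ along the motif, and the first and last base are counted from the start of transcription at 0.
Calr, -162 to -144: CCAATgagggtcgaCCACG
Canx, -145 to -127: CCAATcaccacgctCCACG
Creld2, -126 to -108: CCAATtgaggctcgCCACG
Dnajc3, -105 to -87: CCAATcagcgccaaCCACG
Hsp90b1, -212 to -194: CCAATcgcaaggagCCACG
Hsp90b1, -107 to -89: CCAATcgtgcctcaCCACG
Hspa5, -65 to -47: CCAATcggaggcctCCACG
Pdia6, -98 to -80: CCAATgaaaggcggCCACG
Syvn1, -44 to -26: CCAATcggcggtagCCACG

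The 5 genes with a CARE match were Asns, Atf3, Chac1 and Trib3 of the ATF4 arm and Herpud1, and their sites are printed in capitals throughout.
Asns, -23 to -15: TGATGAAAC
Atf3, -111 to -103: TGATGCAAG
Chac1, -194 to -186: TGATGCAAC
Herpud1, -113 to -105: TGATGCAAC
Trib3, 13 to 21: TGATGTAAA

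For the genes that the results below turn on, the 250 bases before the start are given whole, on the strand of the gene, with motif letters in capitals. Hspa5 is the textbook target of the unfolded protein response, Creld2 and Pdia6 had their KO libraries on opposite sides of WT in the sexes, and Asns had the largest sex difference of the 32. In Creld2 the ERSE lies on the opposite strand and reads as CGTGG and ATTGG.
Hspa5 promoter, chr2:34771840-34772089, plus strand: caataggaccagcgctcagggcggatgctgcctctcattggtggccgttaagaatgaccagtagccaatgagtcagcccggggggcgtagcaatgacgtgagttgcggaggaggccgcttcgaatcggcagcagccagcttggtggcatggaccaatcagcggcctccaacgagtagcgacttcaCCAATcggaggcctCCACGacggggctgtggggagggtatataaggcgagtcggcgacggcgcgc
Creld2 promoter, chr15:88819396-88819645, plus strand: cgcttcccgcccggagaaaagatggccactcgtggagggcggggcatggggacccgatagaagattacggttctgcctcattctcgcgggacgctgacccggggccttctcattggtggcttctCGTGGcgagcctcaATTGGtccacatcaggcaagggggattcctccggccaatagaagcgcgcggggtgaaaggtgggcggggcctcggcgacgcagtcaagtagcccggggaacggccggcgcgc
Pdia6 promoter, chr12:17266339-17266588, plus strand: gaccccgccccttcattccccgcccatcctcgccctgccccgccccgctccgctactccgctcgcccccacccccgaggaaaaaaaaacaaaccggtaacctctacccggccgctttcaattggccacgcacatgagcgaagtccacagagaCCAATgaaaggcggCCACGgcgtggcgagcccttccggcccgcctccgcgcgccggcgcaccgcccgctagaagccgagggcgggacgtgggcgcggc
Asns promoter, chr6:7693210-7693459, minus strand: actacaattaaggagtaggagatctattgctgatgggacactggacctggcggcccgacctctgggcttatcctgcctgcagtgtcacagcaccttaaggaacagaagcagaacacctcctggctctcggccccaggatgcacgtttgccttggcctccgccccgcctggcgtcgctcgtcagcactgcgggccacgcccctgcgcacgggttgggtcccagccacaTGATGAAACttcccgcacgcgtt

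The levels of the members spanned a wide range when set per kilobase of gene length. Over the mean of 12 libraries, P4hb, the protein disulfide isomerase that is also a subunit of collagen prolyl hydroxylase, was highest at 618 CPM per kilobase. Calr, a lectin chaperone, followed at 215, then Herpud1, an ERAD scaffold, at 129.8, Pdia3 at 127 and Hspa5, the central ER chaperone BiP, at 105. The lowest were Atf3, a stress-induced transcription factor, at 0.617, Eif2ak3 at 1.49, Sesn2 at 1.60 and Ddit3 at 2.5 CPM per kilobase. Folding genes lay between 10.5 (Hyou1) and 618 CPM per kilobase, whereas the membrane sensors lay between 1.49 and 4.52, and the transcription factors Xbp1 and Atf4 at 57.5 and 48.3. Atf3 rested on 7 to 53 counts per library. The map of deviations by library shows Asns as the widest contrast of the 32, between the sexes, and a pale to mixed pattern elsewhere.

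**Figure D1:**
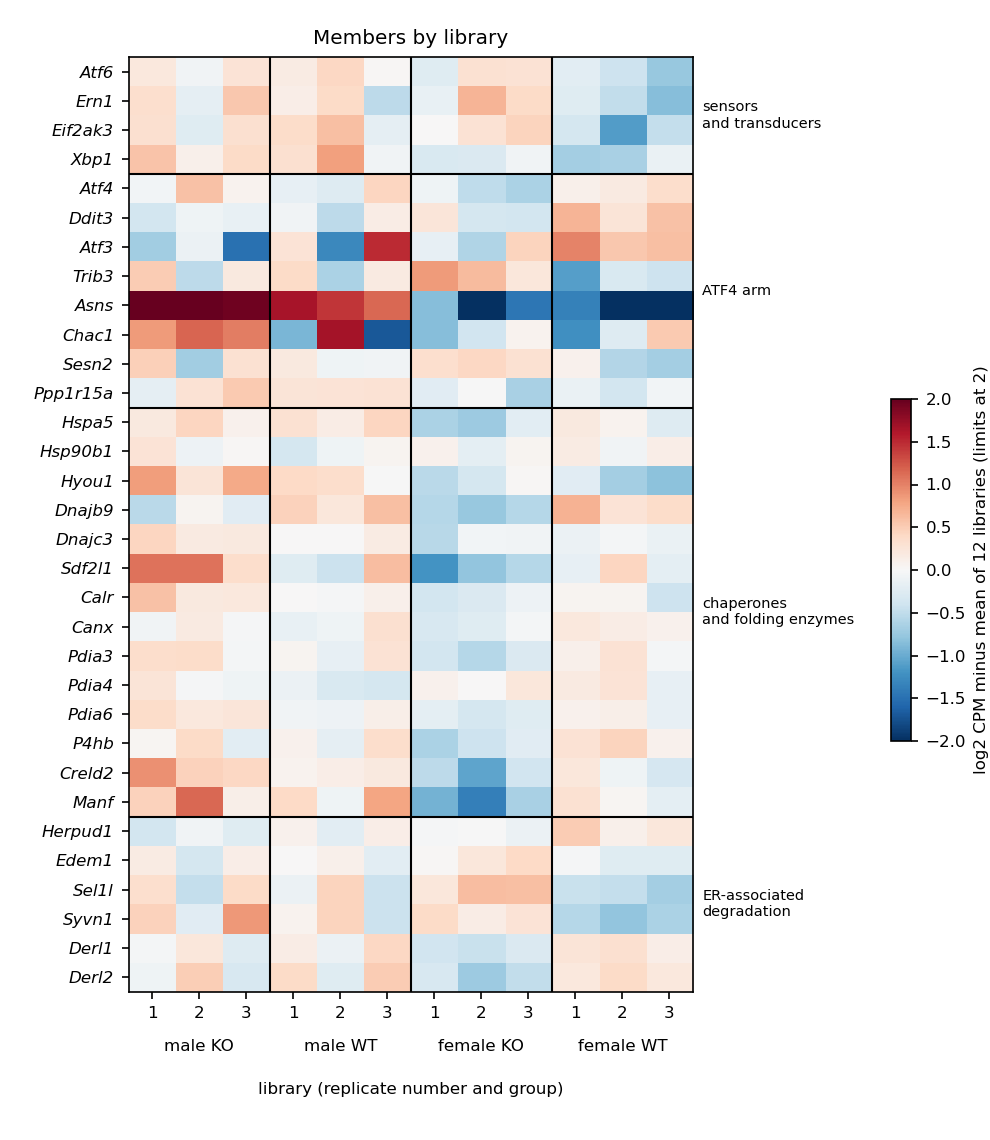
Log2 CPM of each of the 32 members in each of 12 libraries, minus the gene's mean over the 12 libraries, with colours limited at 2 in either direction; rows are grouped by role and columns by male KO, male WT, female KO and female WT. Asns is high in all 6 male libraries and low in all 6 female libraries, and most chaperone rows are bluest in female KO libraries.

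In females, KO against WT asked which of these genes differ with the KO line in that sex. The sensors Atf6, Ern1 and Eif2ak3, the ERAD ligase pair Sel1l and Syvn1, and Trib3 were higher in KO females, by 0.58 to 1.17 on the log2 scale. The folding genes Dnajb9, Manf, Sdf2l1, P4hb, Pdia3 and Hspa5 and the ERAD channel genes Derl1 and Derl2 were lower in KO females, by log2 values of -0.53 to -1.09. In all 14 of 32 members were called (43.8%), against 36.5% of all genes tested, so the count was close to the background of this comparison. Of the 32, 6 were higher (18.8%, background 17.7%) and 8 lower (25%, background 18.8%). The median log2 fold change was -0.17 over the 32 members and 0.049 over all genes tested. Every KO library lay above every WT library in 7 members (21.9%, background 27.6%) and below in 14 (43.8%, background 27.1%).

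Of the 4 sensors and transducers, 3 were called higher in KO females and 0 lower. Atf6, whose cleaved form is a transcription factor, had 25.6, 37.4 and 37.0 CPM in KO females, against 26.1, 22.7 and 17.9 CPM in WT females. A KO library (25.6 CPM) lay within the WT range, and the log2 fold change was 0.58 ± 0.21 (adjusted p = 0.0417). Ern1, the kinase and nuclease that splices Xbp1 mRNA, had 31.6, 56.1 and 45.9 CPM in KO females, against 29.8, 24.9 and 19.5 CPM in WT females. Its groups did not overlap, although the lowest KO library was close to the highest WT library (log2 fold change 0.85 ± 0.28, adjusted p = 0.0342). Eif2ak3, the eIF2 kinase PERK, had 8.63, 10.5 and 11.6 CPM in KO females, against 6.66, 3.89 and 6.11 CPM in WT females. Every KO library was above every WT library (0.88 ± 0.27, adjusted p = 0.0245). Xbp1 had 144, 147 and 170.5 CPM in KO females, against 111, 114 and 163 CPM in WT females, groups that overlapped (0.25 ± 0.23, adjusted p = 0.409). Counts are per gene and do not separate spliced from unspliced Xbp1 mRNA.

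The ATF4 arm gave 1 call among 8 genes, Trib3, a pseudokinase that restrains this arm. Trib3 had 23.2, 20.0 and 15.1 CPM in KO females, against 5.91, 10.4 and 9.65 CPM in WT females, with no overlap and a log2 fold change of 1.17 ± 0.33 (adjusted p = 0.0185). Atf4 had 104, 77.6 and 71.6 CPM in KO females, against 119, 125 and 142 CPM in WT females, and did not pass the test (-0.61 ± 0.23, adjusted p = 0.0565). Every KO library of Atf4 was below every WT library. Ddit3, which encodes the pro-apoptotic factor CHOP, had 4.94, 3.24 and 3.19 CPM in KO females, against 6.66, 4.97 and 6.24 CPM in WT females. Every KO library was below every WT library, the nearest pair at 4.94 and 4.97 CPM, and it did not pass (-0.66 ± 0.25, adjusted p = 0.0586). The other 5 genes were not called. They are Asns (0.74), Sesn2 (0.71), a sestrin that restrains mTORC1, Ppp1r15a (-0.098), which directs dephosphorylation of eIF2, Chac1 (-0.18), which breaks down glutathione, and Atf3 (-0.82).

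Among the 14 chaperones and folding enzymes, 6 were lower in KO females and 0 higher, and 13 of 14 had a negative log2 fold change. Dnajb9 (ENSMUSG00000014905, chromosome 12, 44252342 to 44257109, minus strand, mm39) is a BiP co-chaperone that also holds IRE1 inactive. It had 27.6, 24.3 and 27.8 CPM in KO females, against 66.7, 49.996 and 53.1 CPM in WT females, so the highest KO library stood far below the lowest WT library. Its level was 2.13-fold lower in KO females (log2 fold change -1.09 ± 0.19, adjusted p = 0.0132), the smallest adjusted p of the 32. Manf, an ER-resident factor that binds BiP, had 40.1, 29.8 and 49.4 CPM in KO females, against 95.5, 79.0 and 67.4 CPM in WT females, again without overlap (-1.02 ± 0.30, adjusted p = 0.0208). Hspa5 (ENSMUSG00000026864, chromosome 2, 34661982 to 34667559, plus strand) had 276, 259 and 370.4 CPM in KO females, against 493, 451 and 359.5 CPM in WT females. The highest KO library was above the lowest WT library, so the groups overlapped (-0.53 ± 0.19, adjusted p = 0.0464).

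The disulfide isomerases P4hb and Pdia3 and the BiP partner Sdf2l1 were also lower in KO females, each without overlap. P4hb had 1117, 1301 and 1471 CPM in KO females, against 2097, 2345 and 1832 CPM in WT females (-0.69 ± 0.21, adjusted p = 0.0231). Pdia3, which acts with the lectin chaperones on glycoproteins, had 302, 264 and 317 CPM in KO females, against 416, 474 and 381 CPM in WT females (-0.53 ± 0.18, adjusted p = 0.0387). Sdf2l1 had 11.4, 15.2 and 17.7 CPM in KO females, against 23.4, 35.5 and 23.0 CPM in WT females (-0.88 ± 0.31, adjusted p = 0.0389). The highest KO library of each stood below the lowest WT library. The other 8 folding genes did not pass, with log2 values of -0.58 for Creld2, an ER protein with isomerase activity, to 0.28 for Hyou1, an exchange factor of BiP. Between them lay Canx (-0.35) and Calr (-0.16), the paired lectin chaperones, Pdia6 (-0.28) and Pdia4 (-0.0025), both isomerases, Dnajc3 (-0.11), a BiP co-chaperone, and Hsp90b1 (-0.093), the ER HSP90.

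ERAD genes were called in both directions in females, 2 higher and 2 lower of 6. Sel1l (ENSMUSG00000020964, chromosome 12, 91772817 to 91815931, minus strand, mm39) encodes the adaptor of the ubiquitin ligase HRD1, which Syvn1 (ENSMUSG00000024807, chromosome 19, 6096606 to 6103742, plus strand) encodes. Sel1l had 80.5, 106 and 105 CPM in KO females, against 50.8, 49.5 and 42.8 CPM in WT females. Syvn1 had 58.8, 49.9 and 54.3 CPM in KO females, against 30.3, 26.0 and 29.1 CPM in WT females. Both were without overlap, Sel1l at a log2 fold change of 1.03 ± 0.26 (adjusted p = 0.015) and Syvn1 at 0.93 ± 0.26 (adjusted p = 0.0195). Derl1 and Derl2, rhomboid-like membrane proteins of the retrotranslocation step, went the other way. Derl1 had 137, 131 and 146 CPM in KO females, against 214, 223 and 195 CPM in WT females (-0.61 ± 0.18, adjusted p = 0.0221). Derl2 had 98.4, 74.0 and 87.4 CPM in KO females, against 142, 159 and 142 CPM in WT females (-0.77 ± 0.24, adjusted p = 0.0257). No library of either gene crossed between the groups. Edem1 (0.38), which hands misfolded glycoproteins to ERAD, and Herpud1 (-0.34) were not called.

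**Figure D2:**
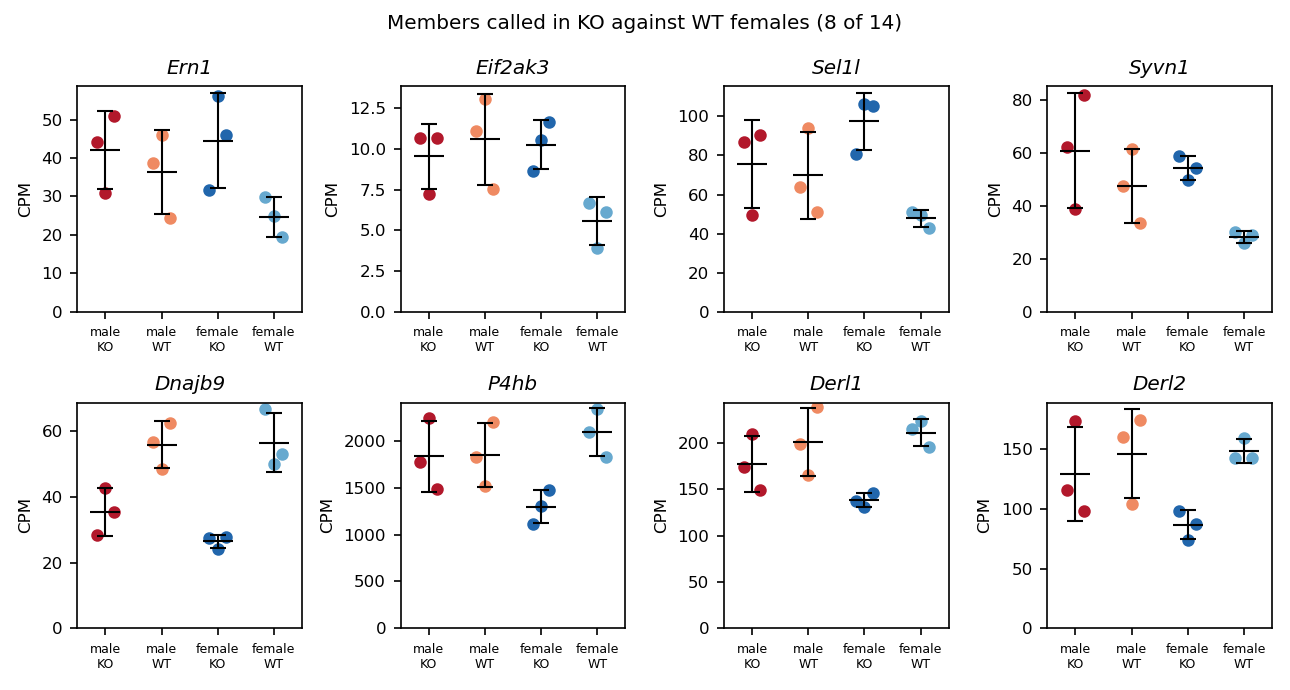
CPM of 8 of the 14 members called in KO against WT females, by library, in male KO, male WT, female KO and female WT mice, with the mean and SD of each group of 3 as bars. Female KO points lie above female WT points in the upper row and below them in the lower row, while the male groups overlap in all panels but that of Dnajb9.

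The female calls moved with the length slope of the libraries. Of the 6 members called higher, 5 were at least 4859 bases long, and of the 8 called lower, 7 were at most 4229 bases long, with Derl2 (8049 bases) the exception. Across genes, Spearman's rho between gene length and the female log2 fold change was 0.44 over the 32 members and 0.42 over all 14003 genes. These genes share the same 12 libraries, and rho is given as a description. With the length slope of each library as a term in the model, 0 of 32 members and 10 of 14003 genes were called by edgeR. At an unadjusted p under 0.05 that fit had 2 of 32 members and 1339 of 14003 genes, and rho over the members was 0.083. In that fit the log2 fold change was -0.0067 for Sel1l, -0.27 for Ern1 and 0.14 for Derl2, each of opposite sign to the value above, while it was 1.25 for Trib3 and -0.73 for Dnajb9. With the length trend of each library removed gene by gene, 8 of 32 members were called, against 30.4% of all genes tested. The count also changed when a single library was left out: without KO female 2 edgeR called 0 of 32 members and 4 of all genes tested, and without WT female 2 it called 0 members and 5 genes. The count was 7 without KO female 3 (20.3% of all genes tested) and 7 without WT female 3 (20.3% of all). At an unadjusted p under 0.05 there were 10 of 32 members without KO female 2, against 5433 of 14272 genes tested. Without WT female 2 there were 16 of 32 members, against 5349 of 14416 genes.

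**Figure D3:**
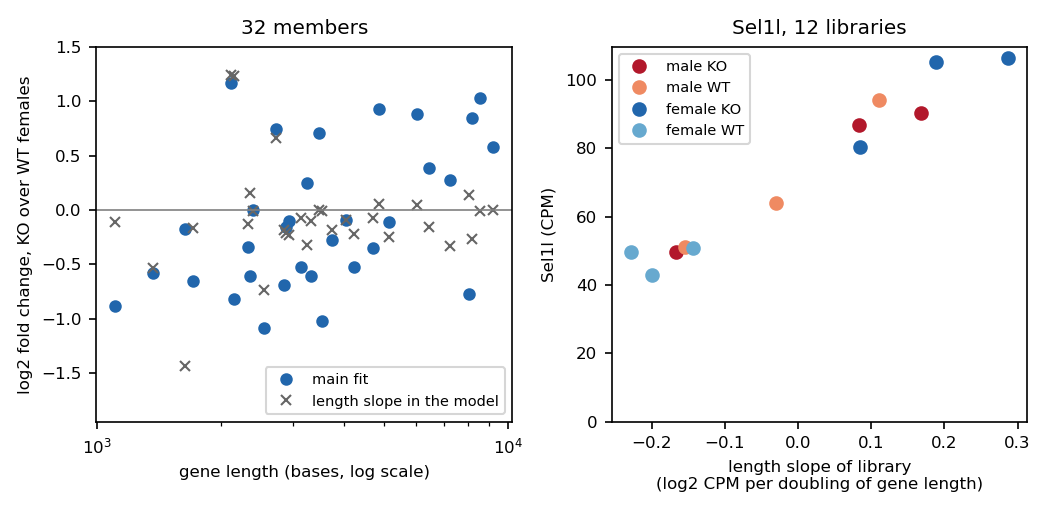
Left, log2 fold change of KO over WT females against gene length in bases (log axis) for the 32 members, from the fit as reported (filled) and with the length slope of each library in the model (crosses). Right, Sel1l in CPM against the length slope of each of the 12 libraries, where male KO 2 and male WT 3, the males of lowest slope, lie with the female WT libraries at 49.7 and 51.2 CPM.

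Markers of other cell types also differed between the female groups, in which 17.7% of all genes tested were called higher and 18.8% lower. The summed level of 10 sinusoidal endothelial markers was 233 to 317 CPM in KO females and 183 to 220 in WT females, with 4 of 10 called higher. That of 12 Kupffer cell and macrophage markers was 253 to 342 CPM in KO females and 226 to 353 in WT females, with 4 of 12 higher. Plasma and B cells, which are rich in ER, gave 296 to 401 CPM in KO females and 249 to 410 in WT females over 12 markers, with 3 of the 10 tested higher and most of the sum from Sdc1, which hepatocytes also express. Of 12 pancreatic acinar markers, 2 had enough counts to be tested Cela1 and Cela2a, and both were lower in KO females. All 12 summed to 24.8 to 28.2 CPM in KO females and 36.3 to 100.1 in WT females. Most of that sum was Cela1, with 497, 509 and 691 counts in KO females and 714, 1144 and 1215 in WT females. The other acinar genes were near 0 apart from Cela2a and from 2 libraries, KO female 1 and WT female 3. Clps had 28, 0 and 0 counts in KO females and 0, 0 and 65 in WT females, and Ctrb1 had 26, 1 and 1 in KO females and 0, 0 and 35 in WT females. Cela3b had 12, 0 and 0 counts in KO females and 1, 0 and 43 in WT females, and Prss2 had 8, 0 and 0 in KO females and 0, 0 and 27 in WT females. Amy2a5 had 0 counts in every library. Of the 32 members, 11 were called without KO female 1 (29.7% of all genes tested) and 7 without WT female 3 (20.3% of all). With all libraries 14 were called (36.5% of all). Without KO female 3 the count was also 7 (20.3% of all). Each fit that dropped a library also had fewer libraries to test with, so these counts cannot show the part of acinar RNA. The 7 cholangiocyte markers summed to 25.3 to 37.1 CPM in KO females and 43.9 to 50.7 in WT females, without overlap. Spp1 gave most of that sum, and of the 6 tested 2 were higher (Krt23 and Sox9) and 2 lower (Spp1 and Krt7). The 10 stellate cell markers summed to 265 to 328 CPM in KO females and 293 to 332 in WT females, with Pdgfrb and Reln higher and Dcn lower. The part of these cells in the members' values was not tested.

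Wider lists of the same pathways give the setting of the 32 in females. In the translocon, signal peptidase and COPII list, which serves the entry of proteins into the ER and their exit, 3 genes were higher (7.89%) and 19 lower (50%) of 38 tested in KO females, against 17.7% higher and 18.8% lower over all genes tested. The cytosolic heat shock list had 0 higher and 11 lower of 19 (57.9%), and the list of other ER chaperones 1 higher (3.12%) and 10 lower (31.2%) of 32. Other ERAD genes had 1 higher (3.57%) and 4 lower (14.3%) of 28, both under the shares of all genes. Other ATF4 and CHOP targets had 3 higher (14.3%) and 5 lower (23.8%) of 21, near those shares, and further stress kinases, eIF2 subunits and transcription factors 6 higher (24%) and 3 lower (12%) of 25. The aminoacyl-tRNA synthetases, which ATF4 is known to raise, had 2 higher (13.3%) and 1 lower (6.67%) of 15, under the shares of all genes, and the mitochondrial unfolded protein response list 0 higher and 3 lower (30%) of 10. The median log2 fold change was -0.48 for the translocon and COPII list, -0.94 for the heat shock list and -0.23 for the other ER chaperones, against 0.049 over all genes tested. These medians describe the lists and no list was tested as a set. The list counts, and the genes named from the lists below, are from the fit without the length slope. With the slope in the model edgeR called 6 of all 14003 genes higher and 4 lower in females.

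In the list of further stress kinases, eIF2 subunits and transcription factors, the 4 called genes of smallest adjusted p in females were Eif2s1, Creb3, Eif2ak1 and Atf5. Eif2s1, the alpha subunit of eIF2 that PERK phosphorylates, averaged 24.6 ± 1.85 CPM in KO females and 62.9 ± 7.52 in WT females (SD, n = 3 each, log2 fold change -1.36 ± 0.25, adjusted p = 0.0137). Eif2ak1, the heme-regulated eIF2 kinase, averaged 35.6 ± 4.54 CPM in KO females and 17.8 ± 3.32 in WT females (1.00 ± 0.26, adjusted p = 0.0156). Atf5, a transcription factor translated like ATF4, averaged 464 ± 149.8 CPM in KO females and 236 ± 50.3 in WT females (0.97 ± 0.26, adjusted p = 0.0167). Creb3, an ER-anchored transcription factor, was lower (-0.75). The translocon subunits Sec61g (-2.27) and Sec61b (-1.59) and the COPII genes Sar1b (-1.79) and Sec13 (-1.22) were lower. So were the heat shock genes Chordc1 (-1.41), Hsp90aa1 (-1.48), Dnaja1 (-0.94) and Ahsa1 (-0.99), and the folding genes Tmx1 (-0.99), Erp44 (-0.62), Sdf2 (-1.20) and Tmx3 (-0.90). In ERAD, Selenok (-1.51), Selenos (-0.99), Ube2g2 (-0.70) and Ngly1 (-0.53) were lower. Of the ATF4 and CHOP targets, Bcl2l11 (1.45), a pro-apoptotic BH3 protein, was higher, and Cebpd (-1.37), Psph (-1.16) and Ddit4 (-1.58) were lower. Of the synthetases, Iars (0.82) and Vars (0.95) were higher and Mars2 (-0.93) lower, and of the mitochondrial list Hspe1 (-2.005), Clpp (-0.86) and Yme1l1 (-1.01) were lower.

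In males, KO against WT asked the same question, and no member passed the test. Of 32 members 0 were called, against 8 of all genes tested (0.0571%, with 0.0286% higher and 0.0286% lower), and DESeq2 also called 0. At an unadjusted p under 0.05 there were 4 members (12.5%, background 4.84%), Asns, Sdf2l1 and Creld2 with higher values and Dnajb9 with lower values. Every KO library lay above every WT library in 6 members, Asns, Calr, Pdia6, Dnajc3, Pdia4 and Creld2 (18.8%, background 5.1%), and below in 1, Dnajb9 (3.12%, background 4.52%). The median log2 fold change was 0.11 over the 32 members and -0.0028 over all genes tested.

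Ern1, Eif2ak3, Sel1l and Syvn1 varied more between male libraries of the same group than between the groups. Ern1 had 44.2, 31.0 and 51.0 CPM in KO males, against 38.7, 46.1 and 24.4 CPM in WT males. Eif2ak3 had 10.7, 7.24 and 10.7 CPM in KO males, against 11.1, 13.1 and 7.56 CPM in WT males. In both genes KO library 2 and WT library 3, the male libraries of lowest length slope, were the lowest of their groups. Sel1l followed the same order with 86.8, 49.7 and 90.3 CPM in KO males, against 63.9, 94.2 and 51.2 CPM in WT males. Syvn1 had 62.2, 38.7 and 81.9 CPM in KO males, against 47.6, 61.8 and 33.5 CPM in WT males. KO library 2 and WT library 3 were again the lowest of their groups in both. Log2 fold changes in males were 0.21 ± 0.28 for Ern1, -0.15 ± 0.26 for Eif2ak3, 0.12 ± 0.26 for Sel1l and 0.36 ± 0.26 for Syvn1. Atf6 had 35.1, 28.9 and 36.6 CPM in KO males, against 33.9, 40.1 and 30.6 CPM in WT males (-0.056 ± 0.21), and Xbp1 263, 191 and 232 CPM in KO males, against 223, 315 and 170.3 CPM in WT males (-0.047 ± 0.23). Both overlapped. The ERAD channel genes overlapped too: Derl1 had 174, 209 and 149 CPM in KO males, against 199, 165 and 238 CPM in WT males (-0.18 ± 0.18). Derl2 had 116, 173 and 97.8 CPM in KO males, against 160.1, 104 and 175 CPM in WT males (-0.18 ± 0.24).

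In the ATF4 arm of males, Atf4 had 106, 166 and 116 CPM in KO males, against 98.4, 92.4 and 149 CPM in WT males, groups that overlapped (0.19 ± 0.23). Ddit3 had 3.18, 3.91 and 3.73 CPM in KO males, against 3.93, 2.85 and 4.59 CPM in WT males (-0.072 ± 0.26). Trib3 had 18.4, 8.90 and 14.8 CPM in KO males, against 16.8, 8.22 and 14.6 CPM in WT males (0.09 ± 0.32), and both overlapped. Asns, the enzyme that makes asparagine, had 27.5, 16.0 and 14.5 CPM in KO males, against 11.8, 10.1 and 8.25 CPM in WT males. Its groups did not overlap, but the log2 fold change of 0.94 ± 0.36 did not pass (adjusted p = 0.911). Atf3 had the widest error of the 32 after Chac1 (-1.37 ± 0.64), at 0.648, 1.01 and 0.326 CPM in KO males, against 1.36, 0.391 and 3.29 CPM in WT males.

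Folding genes in males mostly had positive log2 fold changes, 10 of 14, with a median of 0.22. Creld2 had 34.3, 25.05 and 24.4 CPM in KO males, against 19.1, 20.0 and 20.8 CPM in WT males, and every KO library was above every WT library (0.49 ± 0.22, adjusted p = 1). Sdf2l1 had 55.8, 56.1 and 33.6 CPM in KO males, against 22.3, 19.5 and 40.2 CPM in WT males, where KO library 3 was below WT library 3 (0.83 ± 0.30, adjusted p = 0.865). Calr had 909, 698 and 702 CPM in KO males, against 609.8, 595 and 654 CPM in WT males (0.31 ± 0.18). Dnajc3 had 269, 226 and 229 CPM in KO males, against 199.7, 201 and 223 CPM in WT males (0.21 ± 0.17), and Pdia4 165, 136 and 129 CPM in KO males, against 127, 112 and 108 CPM in WT males (0.31 ± 0.17). In all 3 genes every KO library was above every WT library, and none passed the test. Dnajb9 stood apart from the other folding genes with 28.3, 42.7 and 35.3 CPM in KO males, against 56.8, 48.5 and 62.7 CPM in WT males. It was below WT in every KO library, at a log2 fold change of -0.66 ± 0.19 (adjusted p = 0.653). Hspa5 had 489.9, 578 and 458 CPM in KO males, against 532, 474 and 577 CPM in WT males (-0.054 ± 0.19), and Manf 106, 172 and 83.6 CPM in KO males, against 101, 72.4 and 133 CPM in WT males (0.23 ± 0.29). P4hb had 1777, 2241 and 1486 CPM in KO males, against 1826, 1522 and 2203 CPM in WT males (-0.012 ± 0.21). The groups overlapped in all 3 genes. So did those of Pdia3, with 499, 505 and 381 CPM in KO males, against 403, 348 and 477 CPM in WT males (0.17 ± 0.18).

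**Figure D4:**
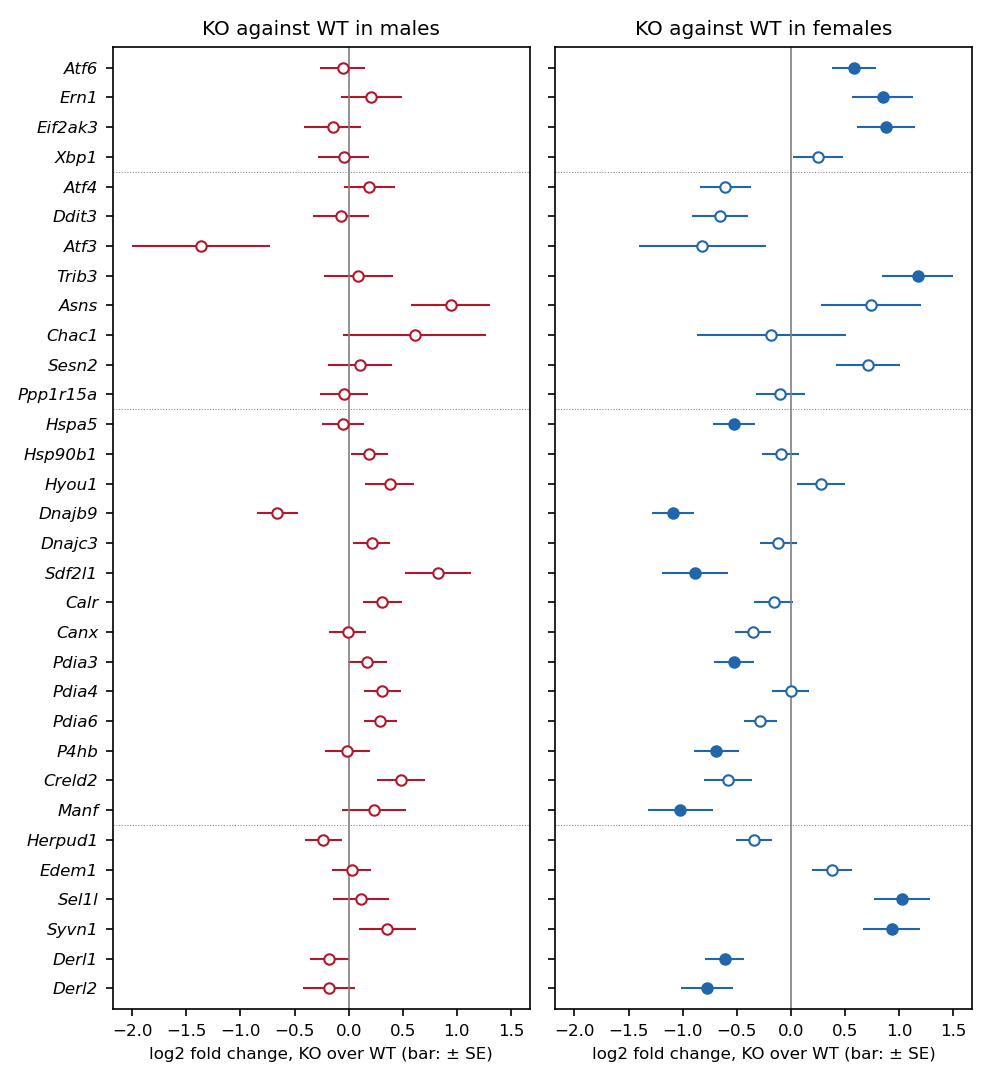
Log2 fold change of KO over WT with its standard error for the 32 members in males (left) and in females (right), grouped by role; filled points passed an adjusted p under 0.05. No male point is filled, and in females the filled points are 3 sensors, Trib3, 6 folding genes below 0, and Sel1l and Syvn1 above and Derl1 and Derl2 below 0.

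Over both sexes, KO against WT left Dnajb9 lower and Syvn1 higher. That is 2 of 32 members (6.25%), a smaller share than the 15.1% of all genes tested, of which 7.78% were higher and 7.29% lower. At an unadjusted p under 0.05 there were 11 members (34.4%, background 39.9%). Dnajb9 was 1.84-fold lower (log2 fold change -0.88 ± 0.14, adjusted p = 0.0137), below WT in every KO library of both sexes, a pattern that 1.52% of all genes had. Syvn1 was higher by 0.65 ± 0.19 (adjusted p = 0.0419). Sel1l (0.57 ± 0.18, adjusted p = 0.0505) and Derl1 (-0.39 ± 0.13, adjusted p = 0.0514) came just outside the threshold. The count was 0 without KO female 2 or without WT male 1, 8 without WT male 2, 14 without KO male 2, and 1 when any single one of the other 8 libraries was left out. The share of all genes called was 0.126% without KO female 2, 0.188% without WT male 1, 31.2% without WT male 2 and 38.7% without KO male 2. At an unadjusted p under 0.05 there were 8 members by edgeR without KO female 2 (4468 of 14272 genes) and 9 without WT male 1 (4772 of 14366 genes). The count of calls was 0 with the length slope in the model by edgeR. At an unadjusted p under 0.05 that fit had 1 member and 1838 of 14003 genes. Of the wider lists, 10 of 19 heat shock genes and 5 of 38 translocon and COPII genes were lower over both sexes, with Chordc1 (-0.90), Dnaja1 (-0.70), Dnajb1 (-0.86) and Hsp90aa1 (-0.87) leading the heat shock genes. Other genes of the wider lists that were lower over both sexes were Creb3 (-0.68), Eif2s1 (-0.81), Eif2b1 (-0.46), Cebpd (-0.94), Ddit4 (-1.37), Mars2 (-0.68), Tmx1 (-0.56), Ube2g2 (-0.52), Sec13 (-0.69), Sar1b (-0.92), Sec61g (-1.23), Srprb (-0.54), Hspe1 (-0.99) and Clpp (-0.48), while Bcl2l11 (0.73) and Bbc3 (0.86) were higher. This contrast averages the changes of the sexes, and no gene of these lists was called in males alone. Means in KO and WT males were 208 and 205 CPM for Hspe1, 5.66 and 5.63 for Bcl2l11, and 291 and 303 for Sar1b. They were further apart for Creb3 (37.7 and 57.6 CPM) and Ddit4 (4.03 and 8.93 CPM), among others.

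The difference of the KO effect between the sexes was tested as an interaction, and 0 of 32 members passed, as did 0 of all genes tested (0%). At an unadjusted p under 0.05 there were 11 members (34.4%, background 22.5%). DESeq2 called 2, Pdia3 and Pdia6 (1.56% of all genes tested). With no filter on low counts edgeR called 2 others, Manf and Sdf2l1 (5.67% of all). The male minus female difference was positive in all 14 folding genes, from 0.10 for Hyou1 to 1.71 for Sdf2l1, with a median of 0.47, against -0.031 over all genes tested. It was negative in all 4 sensors, with a median of -0.64. The median over the 32 members was 0.32, against 0.20 with the length slope in the model and 0.19 with the length trend removed. Over all genes tested it was 0.015 with the slope and -0.060 with the trend removed. In Sdf2l1 the difference was 1.71 ± 0.43, in Manf 1.25 ± 0.42 and in Creld2 1.06 ± 0.31, each with an adjusted p of 0.204. Every KO library was below WT in females and above WT in males for Creld2 and Pdia6 (6.25% of members, against 0.193% of all genes). Pdia6 had 373, 333 and 339.5 CPM in KO males, against 274, 268 and 311 CPM in WT males. In the other sex it had 252, 226 and 244 CPM in KO females, against 305, 314 and 257 CPM in WT females. Creld2 had 12.6, 8.70 and 13.9 CPM in KO females, against 21.2, 17.1 and 14.3 CPM in WT females.

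Between the sexes, KO males were compared with KO females. Asns and the folding genes Creld2, Sdf2l1, Manf, Hyou1 and Hspa5 were higher in KO males. These 6 of 32 members (18.8%) compare with 2.95% of all genes called higher and 5.4% called in either direction, and 0 members were lower (background 2.45%). Every male library was above every female library in 16 members (50%, background 14%) and below in 0 (background 14.2%). The median log2 difference was 0.45 over the 32 members and -0.036 over all genes tested, and by role it was 0.56 for folding genes, 0.22 for the ATF4 arm, -0.0027 for ERAD and -0.036 for sensors.

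Asns (ENSMUSG00000029752, chromosome 6, 7675169 to 7693254, minus strand, mm39) showed the widest sex difference of the 32 in both lines. It had 27.5, 16.0 and 14.5 CPM in KO males, against 2.00, 0.787 and 1.28 CPM in KO females, and 11.8, 10.1 and 8.25 CPM in WT males, against 1.37, 0.510 and 0.450 CPM in WT females. The lowest male library of either line stood above the highest female library. The mean was 19.3 ± 7.11 CPM in KO males, against 1.36 ± 0.610 in KO females, and 10.0 ± 1.76 in WT males, against 0.777 ± 0.515 in WT females (SD, n = 3 each). The fold was 14.2 in KO mice (log2 3.82 ± 0.42, adjusted p = 7.55e-05) and 12.3 in WT mice (3.63 ± 0.44, adjusted p = 0.000193). Female libraries held 7 to 45 counts of Asns and male libraries 133 to 509, so the female levels carry the larger counting error. Of the other genes of the ATF4 arm, Trib3 (-0.47 in KO mice), Sesn2 (-0.24), Ddit3 (-0.071), Atf3 (-0.75), Ppp1r15a (0.52), Atf4 (0.61) and Chac1 (1.38) were not called.

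Of the folding genes, Creld2 (ENSMUSG00000023272, chromosome 15, 88703849 to 88710886, plus strand, mm39) was 2.37-fold higher in KO males than in KO females, at 27.9 ± 5.56 CPM in KO males and 11.8 ± 2.72 CPM in KO females (log2 1.25 ± 0.22, adjusted p = 0.00474). Sdf2l1 was 3.27-fold higher, at 48.5 ± 12.9 CPM in KO males and 14.8 ± 3.17 in KO females (1.71 ± 0.31, adjusted p = 0.00531). Manf was 3.03-fold higher, at 120.4 ± 45.9 CPM in KO males and 39.7 ± 9.80 in KO females (1.60 ± 0.30, adjusted p = 0.00649). In none of the 3 genes did a library cross between the sexes. Hyou1 had 126, 84.7 and 120.5 CPM in KO males, against 48.5, 55.6 and 71.8 CPM in KO females (0.91 ± 0.23, adjusted p = 0.0318). Hspa5, from the levels given above, differed by 0.75 ± 0.19 (adjusted p = 0.0372). Asns, Creld2, Sdf2l1 and Manf were called under every alternative fit, 19 of 19, while Hyou1 was called under 14 and Hspa5 under 11. The female KO libraries that are low here for Sdf2l1, Manf and Hspa5 are the same libraries that are low against WT females.

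**Figure D5:**
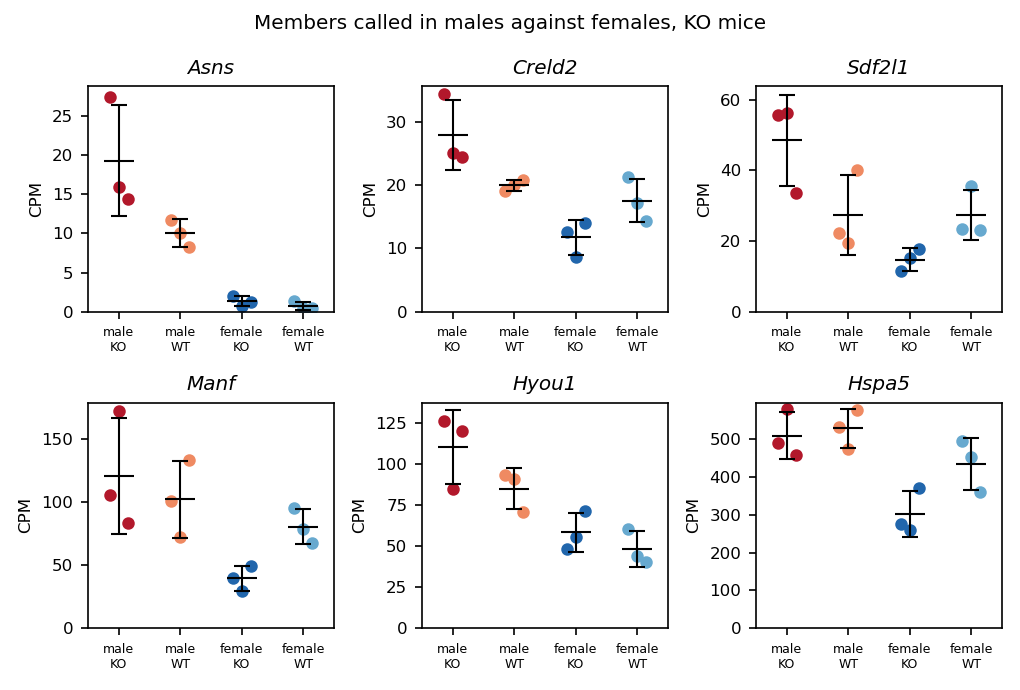
CPM by library of the 6 members called in male against female KO mice, in male KO, male WT, female KO and female WT mice, with the mean and SD of each group of 3 as bars. Male KO points lie above female KO points in all 6 panels, and in WT mice the sexes are apart in Asns and Hyou1.

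In WT mice 1 of 32 members was called between the sexes, Asns (3.12%, background 4.49% in either direction and 2.1% higher), and 0 were lower (background 2.39%). At an unadjusted p under 0.05 there were 8 members (25%, background 22%). Every male library was above every female library in 9 members (28.1%, background 13.4%) and below in 1, Ddit3 (3.12%, background 13.5%). Creld2 (0.18 ± 0.22), Sdf2l1 (0.00014 ± 0.30), Manf (0.34 ± 0.29) and Hspa5 (0.28 ± 0.19) did not pass in WT mice, and the interaction given above did not pass for them either. Hyou1 differed by 0.81 ± 0.23 (adjusted p = 0.0621), against 0.91 in KO mice. It had 93.3, 90.9 and 70.7 CPM in WT males, against 60.8, 44.1 and 40.1 CPM in WT females. Sensors had a median difference of 0.76 in WT mice, the largest for Eif2ak3 (0.93 ± 0.27, adjusted p = 0.0745) and Xbp1 (0.87 ± 0.24, adjusted p = 0.0558). The length slope was -0.23 to -0.14 in WT females and -0.16 to 0.11 in WT males. Atf6, Ern1 and Eif2ak3 are 9231, 8173 and 6026 bases long, and Xbp1 3248. These sensor values are from the fit without the length slope in the model. DESeq2 called 5 members in WT mice (8.76% of all genes tested) and 10 in KO mice (9.96% of all). The WT count was 5 without KO male 2 (7.78% of all) and 4 without WT male 3 (5.4% of all). It was 2 without WT female 1 (3.1% of all) or WT female 3 (2.86% of all).

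Marker sums also differed between the sexes. Plasma and B cell markers summed to 203 to 221 CPM in KO males and 296 to 401 in KO females, with 2 of 10 lower in KO males. Most of that sum was Sdc1, which hepatocytes also express, at a mean of 195 CPM in KO males and 323 in KO females. The 2 called genes were Sdc1 and Cd79a, the latter at 0.394 CPM in KO males and 2.24 in KO females. The 12 acinar markers summed to 48.4 to 132 CPM in KO males and 24.8 to 28.2 in KO females, and here too Cela1 gave most of the sum. It had 1113, 1735 and 970 counts in KO males and 497, 509 and 691 in KO females, and Cela2a had 52, 90 and 69 in KO males and 40, 26 and 55 in KO females. No other acinar gene had over 8 counts in a KO male library, and Prss2 had 0 counts in all 6 male libraries. Their part in the folding gene values was not tested. Of the wider lists, other ER chaperones had 3 higher and 0 lower of 32 in KO males against KO females (background 2.95% higher and 2.45% lower), Dnajb11 (0.77), Ppib (0.99) and Fkbp11 (1.62), and 2 of 38 translocon and COPII genes were higher, Serp1 (1.49) and Sec23b (0.65). The genes of these lists are named here after their values were seen. Other ATF4 and CHOP targets had 3 higher, Cebpd (1.16), Mthfd2 (1.45) and Psph (0.95), and 1 lower, Vldlr (-1.73), of 21. The aminoacyl-tRNA synthetases had 0 of 15 called in either line.

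The promoter matches shown above can be set beside these values. Of the 8 genes with an ERSE, 5 (62.5%) had every KO male library above every KO female library and 2 (25%) were called higher, Creld2 and Hspa5, against 14% and 2.95% of all genes tested. Of the 20 members with a promoter entry and no ERSE match, 8 (40%) had that pattern and 2 (10%) were called higher. The median log2 difference of KO males from KO females was 0.51 for the genes with an ERSE and 0.18 for those without. All genes with an ERSE but Syvn1 are folding genes, a role whose median was 0.56, so this comparison is also one of roles. Folding genes with an entry and no ERSE match were Sdf2l1 (1.71), Pdia3 (0.65), P4hb (0.50), Dnajb9 (0.42) and Pdia4 (-0.054). Manf and Hyou1, both called higher, have no entry. In KO against WT females the medians were -0.22 for the genes with an ERSE and -0.14 for those without. Of the 5 genes with a CARE, 1 was called higher in KO males than KO females, Asns (20%, background 2.95%), and 1 in KO females over WT females, Trib3 (20%, background 17.7%). Of the 23 members with an entry and no CARE match, 3 (13%) and 4 (17.4%) were called higher in these comparisons. The median log2 difference of KO males from KO females was -0.17 with a CARE and 0.48 without. These are counts over few genes and no test was made of them.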

How the data were processed

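Liver poly(A) RNA of 12 mice, 3 biological replicates in each of 4 groups, was read from the authors' deposited table of whole-number counts per gene, which also gives symbols, mm39 positions and gene lengths. HISAT2 2.0.5, DESeq2 and mm39 are named, per the submitters' processing notes, with no role stated. The sources used here do not say how reads were counted, or whether by strand. From the counts, edgeR 4.0.16 (R 4.3.3) kept 14003 of 56748 genes (filterByExpr) and fitted 1 mean per group with TMM scaling (8 residual and 5.22 prior degrees of freedom, biological coefficient of variation 25.9%). The quasi-likelihood F test was run on 6 contrasts and adjusted by Benjamini-Hochberg. Log2 CPM used a prior count of 2. Replicates of a group differed beyond counting noise (15.6 to 138 for chi-square over its degrees of freedom). The steps were tested on simulated counts.

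The members and the gene lists were chosen with earlier results of these data known. Values in every library are given for Atf6, Ern1, Eif2ak3, Xbp1, Atf4, Ddit3 and Hspa5 and for each member called in any contrast. A few others were added after their values were seen because their groups did not overlap or were noisy, Pdia6 in every library and Calr, Dnajc3, Pdia4 and Atf3 in the male libraries. From each wider list, up to 4 called genes of smallest adjusted p were named per KO contrast. The length slope was fitted per library, as log2 CPM deviation on log2 gene length, over 9366 genes whose mean log2 CPM exceeded 2. Promoter sequences are RefSeq's on GRCm38.p6 and were not combined with the mm39 positions.

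Alternatives were DESeq2 1.42.0, RLE scaling, no filter on low counts, the replicate number as a block, the length slope in the model, the length trend removed, each library left out in turn, and 1 setting added after the data were seen, without KO male 2 and WT male 3 together.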

Additional observations from a re-analysis of the deposited data

Results flagged for a closer look

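The KO effect on Pdia6 and on Creld2 lay in opposite directions in the sexes in every library. For Creld2 the male log2 fold change minus the female one was 1.06 ± 0.31, and for Pdia6 it was 0.57 ± 0.22. Each KO male was above each WT male and each KO female was below each WT female, as in 27 of 14003 genes (0.193%). The nearest KO and WT females were at 13.9 and 14.3 CPM for Creld2, and at 252 and 257 CPM for Pdia6. By edgeR's quasi-likelihood test, KO against WT was not called in females (adjusted p = 0.0556 for Creld2 and 0.157 for Pdia6). It was not called in males for either gene. The interaction itself did not pass edgeR's quasi-likelihood test in either gene (adjusted p = 0.204 for each), and of the alternatives DESeq2 called it for Pdia6.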

How the results depend on the processing

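The 0 calls in males were 0 under all 19 alternatives. In females the 14 calls were 7 with the replicate block, 0 with the length slope in the model, 8 with the length trend removed and 0 to 17 with a library left out. Of all genes tested, 36.5% were called in the reported fit, 24% with the block, 0.0714% with the slope and 30.4% with the trend removed. With a library left out, 4 to 5993 genes were called. The log2 fold changes of Derl2 (0.14), Sel1l (-0.0067) and Ern1 (-0.27) reversed in the fit with the slope. Over both sexes the 2 calls were 9 with DESeq2, 8 with no filter, 0 with the block, 0 with the slope in the model, 4 with the trend removed, 0 to 14 with a library left out and 9 without KO male 2 and WT male 3, a setting chosen after seeing the data. Of all genes tested, 15.1% were called in the reported fit, 28.3% with DESeq2, 15.2% with no filter and 0.164% with the block. The share was 0.15% with the slope, 11.8% with the trend removed and 32.9% without KO male 2 and WT male 3. With a library left out, 18 to 5594 genes were called. The interaction gave 2 calls with DESeq2 (1.56% of all genes tested) and 2 with no filter (5.67% of all), against 0. In KO mice the 6 sex calls were 10 with DESeq2 and 4 to 7 with a library left out, and in WT mice the 1 call was 5 with DESeq2, 5 with no filter, 2 with the slope in the model, 2 with the trend removed, 1 to 5 with a library left out and 9 without KO male 2 and WT male 3. Of all genes, KO mice had 5.4% called in the reported fit, 9.96% with DESeq2 and 440 to 953 genes with a library left out. WT mice had 4.49% in the reported fit, 8.76% with DESeq2, 6.64% with no filter, 5.46% with the slope and 5.02% with the trend removed. They had 379 to 1124 genes with a library left out and 21.9% without KO male 2 and WT male 3. The cause of these shifts was not tested, and the fits that dropped libraries show only that the counts changed. The replicate numbers share only a number: correlations of same-numbered deviations ran from -0.61 to 0.057, with 0 of 12 above 0.1. The block gave 4 calls between the sexes in KO mice (3.62% of all genes) and 1 in WT mice (2.96% of all). With 3 libraries a group and 7 to 45 counts in females, the level of Asns there is set by few counts.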
